A study of Mus musculus with 10 samples.

Results

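The adhesion G protein-coupled receptors (GPCRs) were examined as a family of genes in a map of ZFP266 binding sites in mouse embryonic fibroblasts (MEFs). The genes were those of a fixed list of mouse family members, which holds *Adgrb3*, the example locus of the study. All 30 listed genes were found among the 21000 protein-coding genes that have a curated RefSeq transcript on GRCm38. A binding site, called a peak here, was assigned to a gene when it shared at least 1 base with the gene or with the 10 kb on either side. By this rule 20 of the 15119 peaks of the deposited list belonged to the family.

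Adhesion GPCRs are cell surface receptors with a long extracellular part that holds adhesion domains, and most are cleaved at a site close to the first membrane helix. The extracellular part binds proteins on neighbouring cells or in the matrix, and the membrane part signals through G proteins. Members act in synapse formation, planar cell polarity, myelination, vascular development and immune cell adhesion, and many of their genes are long.

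ZFP266 is a zinc finger protein, and its binding was mapped by DamID-seq. In this method a protein is fused to the bacterial methyltransferase Dam, which methylates adenine in GATC sequences near the places where the fusion protein sits. MEFs of the 129 strain received a plasmid for Dam fused to ZFP266 (PGK-mO-Dam-Zfp266) in 5 samples, or for Dam alone (PGK-mO-Dam) in 5 samples. Both were driven by the PGK promoter, downstream of an mOrange reading frame, and the cells were sorted 48 h after nucleofection. Dam alone marks accessible chromatin and is the background. The peaks were called from all samples together, so the list has no value of a single sample, no replicate error and no read depth, and no test between samples could be made. It also holds no expression values, so the identity of the cells could not be checked against markers and it is unknown which of these receptors the MEFs expressed. Intervals given below are 95% intervals for counting error only, and all comparisons are descriptions.

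Of the 30 genes, 12 had a peak in the gene or within 10 kb, which is 40% (Wilson interval 24.6 to 57.7%), against 27.2% of all protein-coding genes, a value inside that interval. Each of these 12 had a peak that touched the gene itself, where 17.1% of all genes did. The genes with a peak were *Adgra1*, *Adgra3*, *Adgrb2*, *Adgrb3*, *Adgrd1*, *Adgre5*, *Adgrf5*, *Adgrg6*, *Adgrl2*, *Adgrl3*, *Adgrl4* and *Adgrv1*. The other 18 had none, namely *Adgra2*, *Adgrb1*, *Celsr1*, *Celsr2*, *Celsr3*, *Adgre1*, *Adgre4*, *Adgrf1*, *Adgrf2*, *Adgrf3*, *Adgrf4*, *Adgrg1*, *Adgrg2*, *Adgrg3*, *Adgrg4*, *Adgrg5*, *Adgrg7* and *Adgrl1*.

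Family members are long genes, with a median length of 72.2 kb against 16.7 kb for all genes, and longer genes had peaks more often. Of all genes under 20 kb, 17.2% had a peak, and this share was 28.4% from 20 to 50 kb, 41.9% from 50 to 100 kb, 54.2% from 100 to 200 kb and 75% above 500 kb. Each member was therefore set beside the 200 protein-coding genes nearest to it in length. These genes would give 12.8 members with a peak where 12 were found, a ratio of 0.93 (0.58 to 1.35). They would give 29.7 peaks where 20 were found, a ratio of 0.67 (0.41 to 1.04). This interval treats peaks as independent, although 26.2% of all peaks had another within 2 kb, so it is likely too narrow. The number expected is a sum of means, and 375 of all genes had 5 or more peaks. For peaks that touched the gene itself, genes of similar length would give 10.5 members where 12 were found. The share of members with a peak was thus close to that of genes of similar length, and the number of peaks lay below that of such genes with an interval that reached 1.

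**Figure D1:**
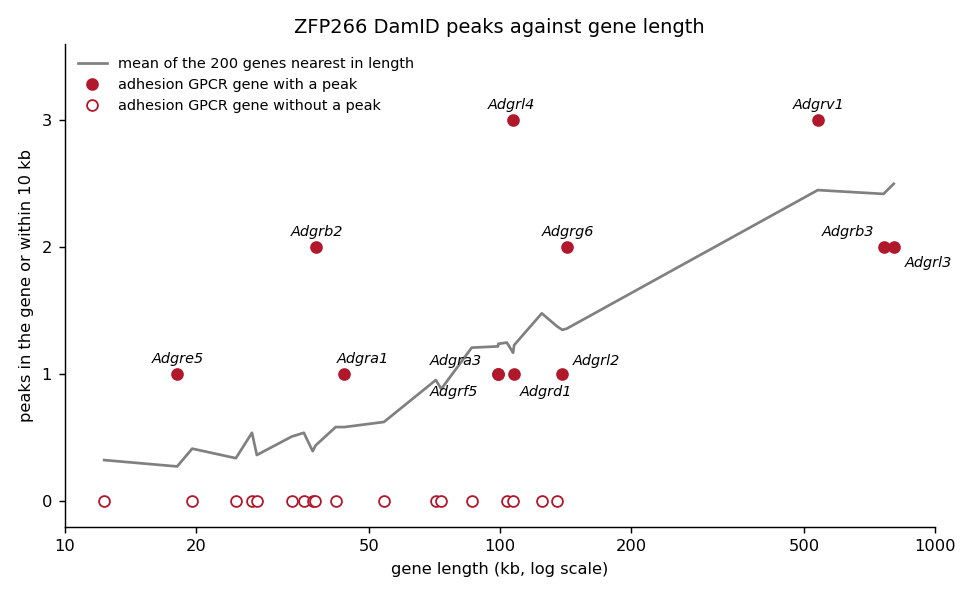
Number of peaks in the gene or within 10 kb (vertical axis) against gene length in kb (horizontal axis, log scale) for the 30 adhesion GPCR genes; filled points have a peak and open points have none, and the grey line is the mean of the 200 genes nearest in length. All 3 members above 500 kb had 2 or 3 peaks, *Adgrl4* had 3 at 107.2 kb, and 18 members lay at 0.

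The number of peaks differed between the subfamilies. The 4 latrophilin-type genes (L) held 6 peaks in 3 genes where genes of similar length would give 5.61 peaks, and the 3 B genes held 4 peaks in 2 genes against 3.75. The single V gene held 3 against 2.45, the single D gene 1 against 1.23 and the 3 A genes 2 against 2.24. The D and A numbers were thus slightly below those of genes of similar length, and those of the C, E, F and G subfamilies were further below. The 7 G genes held 2 peaks against 5.89, the 5 F genes 1 against 3.24, the 3 E genes 1 against 3.01, and the 3 C genes, which are the cadherin-type *Celsr* genes of planar cell polarity, 0 against 2.25. By genes with a peak, G had 1 against 2.83, F 1 against 1.67, E 1 against 1.27 and C 0 against 1.09. All other subfamilies had more genes with a peak than genes of similar length would give. Each subfamily holds 1 to 7 genes, and none of these differences was tested.

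The sequences shown next are those on which the description of the peaks turns, since the study examined ZFP266 binding at B1 SINEs, short interspersed repeats that derive from the 7SL RNA gene, and at motifs of AP-1, a transcription factor family active in fibroblasts. B1-like elements were searched with a consensus of 136 bp derived here from the most repeated words of GRCm38, which is given in lower case. The second line is the window of the longer *Adgrb3* peak with its B1-like element and nearest AP-1 core motif (read as TGACTCA on one strand and TGAGTCA on the opposite one) in capitals, at chr1:25199310-25199603 on the minus strand, which is the strand of *Adgrb3*. The last line is the element closest to the consensus among all member peaks, in capitals with 15 bases on either side, in *Adgrl3* (chr5:81441333-81441495, plus strand).
B1 consensus: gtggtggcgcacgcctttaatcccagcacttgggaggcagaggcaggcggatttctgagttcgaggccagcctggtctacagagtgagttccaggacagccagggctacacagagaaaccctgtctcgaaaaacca
Adgrb3 B1 and AP-1: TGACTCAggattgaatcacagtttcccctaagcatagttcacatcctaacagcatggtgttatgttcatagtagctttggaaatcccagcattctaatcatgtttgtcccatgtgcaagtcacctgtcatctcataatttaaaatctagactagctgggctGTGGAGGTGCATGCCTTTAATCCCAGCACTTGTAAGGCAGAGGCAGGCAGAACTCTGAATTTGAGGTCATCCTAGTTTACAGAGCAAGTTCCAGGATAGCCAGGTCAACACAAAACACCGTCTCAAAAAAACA
Adgrl3 B1: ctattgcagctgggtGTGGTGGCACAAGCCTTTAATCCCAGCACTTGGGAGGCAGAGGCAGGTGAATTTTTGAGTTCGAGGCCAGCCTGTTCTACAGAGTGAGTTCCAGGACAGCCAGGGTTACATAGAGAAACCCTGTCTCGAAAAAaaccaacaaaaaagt
The *Adgrb3* element had 80.9% identity to the consensus over 136 aligned positions, with 224 bp between its centre and that of the motif. The *Adgrl3* element had 94.0% identity over 133 positions and its peak held no AP-1 core motif.

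The B subfamily consists of the brain-specific angiogenesis inhibitors, receptors of the synapse and of phagocytosis. *Adgrb3* lies on the minus strand of chromosome 1 (chr1:25067476-25829707, 762.2 kb) and had 2 peaks, both in introns and 527 kb apart. The longer peak (chr1:25196453-25202843, 6391 bp) covered 6 DpnII fragments in intron 19 of 30, 630.1 kb from the start of the gene, with a signal value of 0.927 and a q of 0.0184. The signal value is the measure of Dam-ZFP266 over Dam only in the deposited list, whose scale is not stated, and its median over all 15119 peaks was 0.898. This peak held the element shown above near its midpoint, and a second element of 82.7% identity crossed its left edge. The other peak (chr1:25730242-25734374, 4133 bp) was a single fragment in intron 2, 97.4 kb from the start of the gene, with a higher signal value of 1.17 but a weaker q of 0.0688. It held B1-like elements of 83.1% and 92.5% identity and 1 AP-1 core motif, 251 bp from the centre of the less similar element. By signal, the longer peak ranked near the middle of the list, above 55.2% of all peaks, and the other one above 84.9%.

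*Adgrb2*, a gene of 37.8 kb on chromosome 4 (chr4:129984870-130022633), also had 2 peaks. Its first peak (chr4:129983008-129984975) had a signal value of 1.36 with a q of 0.00511, the highest signal and the lowest q of the 20, and lay above 94.2% of all peaks. It was a single fragment of 1968 bp that ended 106 bases inside the gene, and it was the 1 member peak at a promoter, which was taken to begin 1000 bp before a transcript start and to end 100 bp after it. Of all peaks, 4.85% met a promoter. The peak covered the whole RefSeq promoter window of *Adgrb2* (GRCm38.p6, chr4:129984620-129984919, plus strand, 250 bases before to 50 after the start). The window is given because this peak had the highest signal in the family. The fragment is longer than the window, so the signal cannot be placed within the window.
Adgrb2 promoter: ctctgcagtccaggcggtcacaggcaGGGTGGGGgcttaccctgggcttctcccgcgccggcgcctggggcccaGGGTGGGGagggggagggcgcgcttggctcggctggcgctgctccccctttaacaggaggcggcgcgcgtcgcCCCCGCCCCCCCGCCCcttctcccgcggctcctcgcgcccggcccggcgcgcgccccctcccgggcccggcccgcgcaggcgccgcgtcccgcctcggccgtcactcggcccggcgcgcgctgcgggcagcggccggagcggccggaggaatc
The capitals mark matches to the KLF core, searched as CCACACCC, CCACGCCC, CCCCACCC and CCCCGCCC on both strands, of which there were 4 in the window and 5 in the peak. Of 32851 RefSeq promoter windows of this length, 29.7% held such a match. Neither the window nor the peak held an AP-1 core motif, which 5.20% of the windows held, and the peak held no B1-like element. The second *Adgrb2* peak (chr4:130004028-130006444) had a signal value of 0.591 with a q of 0.0081 and its midpoint in intron 3 of 28, and it also reached into an exon. *Adgrb1*, the third gene of the subfamily, had no peak, and the nearest one was 68.1 kb away.

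**Figure D2:**
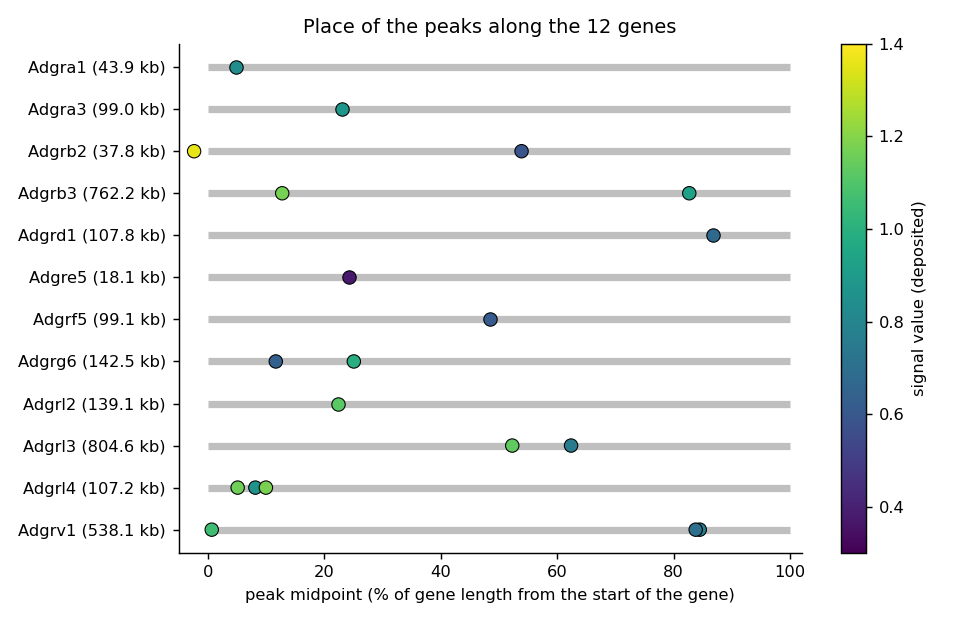
Place of each peak midpoint along the 12 adhesion GPCR genes with a peak, in percent of gene length from the start of the gene (horizontal axis); rows are genes with their length in kb and the colour is the deposited signal value. The brightest point is the *Adgrb2* peak at the start of the gene, and the 3 peaks of *Adgrl4* sit together between 5.15% and 10% of its length.

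The L subfamily consists of the latrophilins, which bind teneurins and FLRT proteins across synapses, and of *Adgrl4*, an endothelial receptor. *Adgrl4* (chr3:151437882-151545081, 107.2 kb) had 3 peaks in intron 2 of 15, within 6191 bp. The first (chr3:151442887-151443915) had a signal value of 1.16 and a q of 0.0371. The second (chr3:151445325-151448001), of 4 fragments, had the lower signal value of 0.862 with the stronger q of 0.00895. The third (chr3:151448205-151449077) had a signal value of 1.18 and a q of 0.0472. Gaps of 1409 and 203 bp separated these peaks, so they may be counted as 1 bound stretch or as 3. Genes of its length had 1.17 peaks on average. Each of the 3 peaks held an AP-1 core motif, and the third also held a B1-like element of 91.9% identity, 287 bp from its motif.

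*Adgrl3*, with 804.6 kb the longest member (chr5:81020571-81825133), had 2 peaks, where genes nearest in length had 2.50 on average. The higher one (chr5:81440975-81442172), in intron 5 of 25, had a signal value of 1.13 with a q of 0.0336 and contained the B1-like element shown above. The other (chr5:81521598-81524145), in intron 8, had a signal value of 0.759 with a q of 0.0744 and neither a B1-like element nor an AP-1 core motif. *Adgrl2* (139.1 kb) had a single peak in intron 1 of 23 (chr3:148922642-148924522), with a signal value of 1.12 and a q of 0.00988, and this peak held neither. *Adgrl1* had none, and its nearest peak was 77.6 kb away.

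*Adgrv1*, a very large receptor of hair cells and photoreceptors, lies on chromosome 13 (chr13:81095068-81633144, minus strand, 538.1 kb) and had 3 peaks. The peak with the highest signal value, 1.06, and a q of 0.0475 (chr13:81628150-81630628) was in intron 1 of 89, 3.8 kb from the start of the gene. The other 2, with signal values of 0.772 and 0.698 and q of 0.0848 and 0.0948, had their midpoints in intron 86 (chr13:81177916-81179003 and chr13:81179541-81184982). A gap of 537 bp separated them, and the longer one also reached into an exon. Each of the 3 held at least 1 AP-1 core motif, and the longest held 3 of them and a B1-like element of 93.4% identity, 313 bp from the nearest motif. The pair in intron 86 was thus weak by both measures, and the peak in intron 1 passed both stricter limits used below.

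The remaining genes had 1 or 2 peaks each. *Adgrg6*, a receptor needed for myelination by Schwann cells (142.5 kb), had 2 peaks in intron 2 of 24. They had signal values of 0.991 with a q of 0.0121 (chr10:14507542-14511038) and 0.633 with a q of 0.0261 (chr10:14526338-14530538), and neither held a B1-like element or an AP-1 core motif. *Adgra3* had a single peak in intron 1 (chr5:50035538-50036713) with a signal value of 0.876 and a q of 0.0616. *Adgra1* had one in intron 2 (chr7:139835457-139837224) with 0.837 and a q of 0.0262, 2.2 kb from the start of the gene. *Adgrd1* had one in intron 21 of 25 (chr5:129189608-129191185), with a signal value of 0.672 and a q of 0.0428, and it reached into an exon and held 1 AP-1 core motif. *Adgrf5*, a receptor that regulates surfactant in the lung, had one in intron 2 (chr17:43406634-43410317) with a signal value of 0.610 and a q of 0.0794, a B1-like element of 81.6% identity and 1 AP-1 core motif 2135 bp from it. *Adgre5*, the leukocyte receptor CD97 and with 18.1 kb the shortest member with a peak, had the lowest signal value of the 20, 0.376 with a q of 0.0846 (chr8:83735939-83737923), in its intron 1. Only 0.311% of all peaks had a lower signal.

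**Figure D3:**
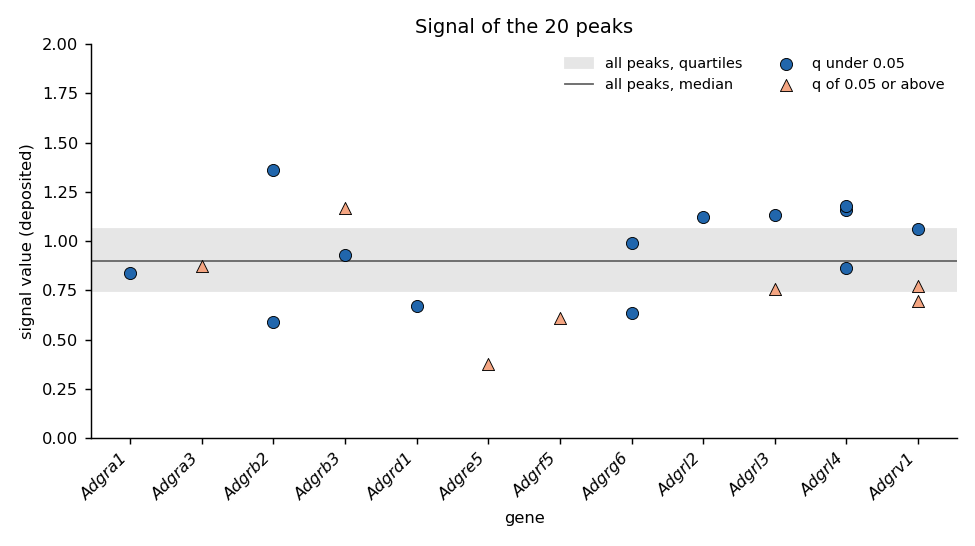
Deposited signal value (vertical axis, scale not stated) of each of the 20 peaks by gene; circles have a q under 0.05 and triangles a q of 0.05 or above, the grey band spans the quartiles of all 15119 peaks and the line is their median of 0.898. The family's values run from 0.376 in *Adgre5* to 1.36 in *Adgrb2* and lie on both sides of the median.

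Across the family the peaks were like the rest of the list in strength. Signal values ran from 0.376 to 1.36 with a median of 0.869 (interval of the median 0.698 to 1.12), and 9 of 20 were above the median of all peaks. A signal value above 1 was found in 7 of 20 peaks, which is 35%, against 33.3% of all peaks, and a q under 0.05 in 13 of 20 (65%) against 52.5%. The study's methods name an FDR under 0.05 and a log2 fold change above 1 as the limits of its calls, whereas q in the deposited list reaches 0.1 and the scale of the signal value is not stated. With a q under 0.05 and a signal value above 1, 6 member peaks in 5 genes were left, 1 each in *Adgrb2*, *Adgrl2*, *Adgrl3* and *Adgrv1* and 2 in *Adgrl4*. Under these limits 10% of all genes had a peak, and genes of similar length would give 5.32 members. *Adgrb3* was not among the 5, because its stronger peak missed the q limit and its more significant peak the signal limit.

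The peaks lay in introns. The midpoint was in an intron of the member in 19 of 20 peaks (95%, Wilson interval 76.4 to 99.1%), and the remaining one was the *Adgrb2* promoter peak. Of the 19 with the midpoint inside the gene, all 19 (100%) were intronic, against 95.8% of the 6872 such pairs of peak and gene over all genes and 97.3% over genes of at least 18 kb. A share of 52.6% of the 19 midpoints (10 peaks) was in the first 25% of the gene, against 40.5% over all genes. These 10 include the 3 neighbouring *Adgrl4* peaks, which may be a single bound stretch, and the difference was not tested. In 5 of 20 peaks (25%) another peak lay within 2 kb, all of them in *Adgrl4* and *Adgrv1*, against 26.2% of all peaks. Exons of the member were touched by 4 of the 20 peaks. No peak overlapped another protein-coding gene of RefSeq.

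B1-like elements of at least 80 bp and 70% identity overlapped 6 of 20 member peaks, which is 30% (Wilson interval 14.5 to 51.9%), against 32.7% of all peaks and 37% of the peaks nearest in length. These 6 were both *Adgrb3* peaks and 1 peak each in *Adgrf5*, *Adgrl3*, *Adgrl4* and *Adgrv1*. AP-1 core motifs were present in 10 of 20 peaks (50%, 29.9 to 70.1%), against 44.2% of all peaks and 51.2% of the peaks nearest in length. Both features were found together in 5 peaks (25%, 11.2 to 46.9%), against 14.3% of all peaks and 19% of peaks of similar length. Neither was found in 9 peaks (45%, 25.8 to 65.8%), against 37.4% of all peaks and 30.8% of peaks of similar length. The 9 peaks with neither were the single peaks of *Adgra1*, *Adgra3*, *Adgre5* and *Adgrl2*, both peaks of *Adgrb2* and of *Adgrg6*, and 1 of *Adgrl3*. The peak with the highest signal of the family was thus among those without either feature. KLF core matches were present in 45% against 47.9% of peaks of similar length, and the SOX core CCATTGT, searched on both strands, in 30% against 30%.

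**Figure D4:**
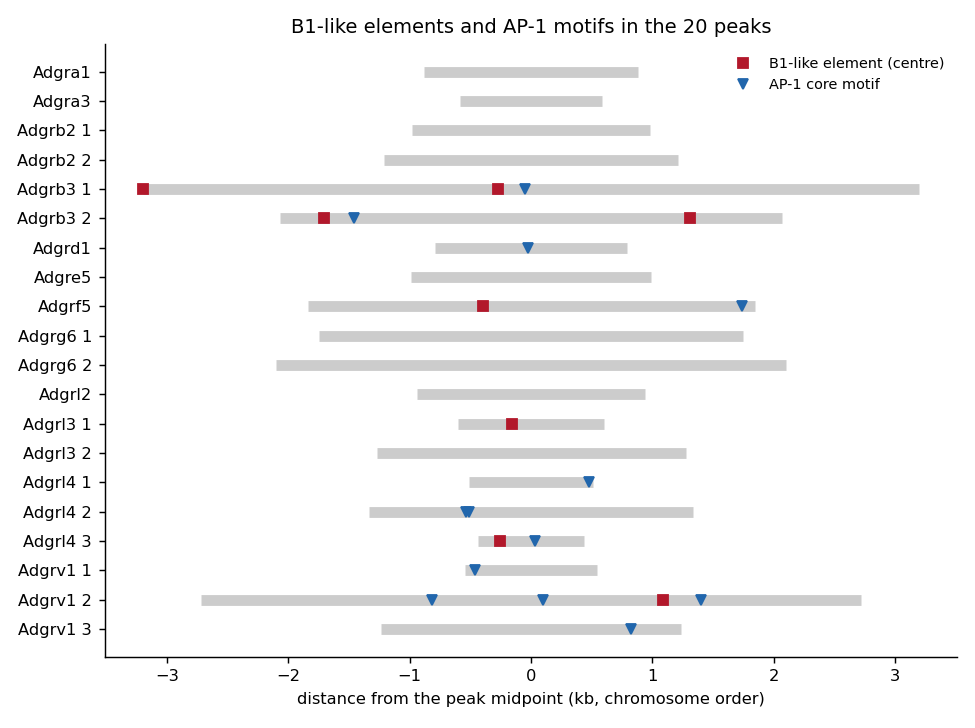
Extent of the 20 member peaks as grey bars around their midpoint (horizontal axis, distance in kb in chromosome order; rows are peaks, numbered by position within a gene), with centres of B1-like elements as squares and AP-1 core motifs as triangles. Both marks share a row in 5 of the 20 peaks, and 9 bars carry no mark.

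**Figure D5:**
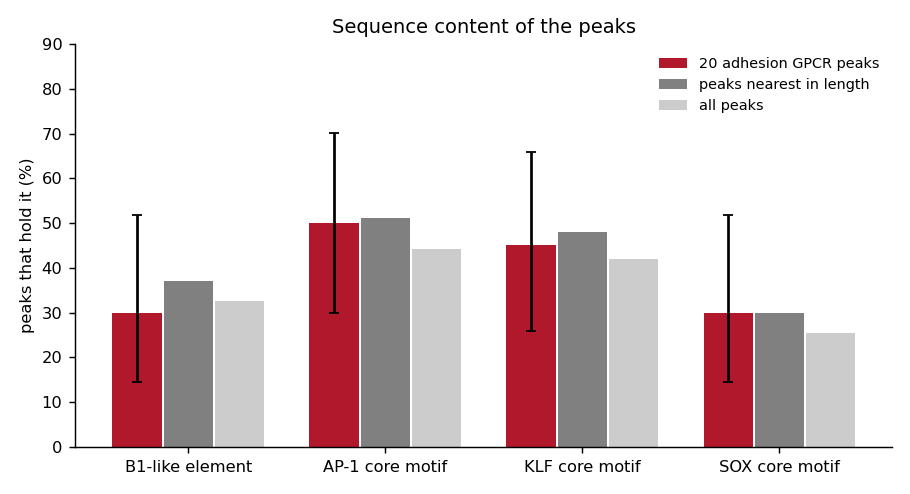
Percent of peaks that hold each feature (vertical axis) in the 20 adhesion GPCR peaks with Wilson 95% intervals, in the peaks nearest to them in length and in all 15119 peaks. For each of the 4 features the interval of the member peaks spans both other values, for example 14.5 to 51.9% for B1-like elements against 37% and 32.7%.

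Most B1-like elements of these genes lay outside peaks. The 30 genes held 270 elements, of which 7 had their midpoint in a peak. Within the 12 genes with a peak, the density was 14.0 elements per 100 kb of peak sequence (exact Poisson interval 5.61 to 28.8) against 5.48 per 100 kb of the remaining gene. AP-1 core motifs had a density of 25.9 per 100 kb in these peaks (13.8 to 44.3) against 16.9 in the remaining gene. The intervals assume independent counts, and for AP-1 the lower bound was below the density outside. For B1-like elements the lower bound of 5.61 was barely above 5.48, and 3 of the 7 elements were in *Adgrb3* peaks. The median identity to the consensus was 91.9% for the 7 elements in peaks, with a range from 80.9 to 94.0%, and 88.7% for the other 263. *Adgrb3* held 33 elements, *Adgrl3* 37 and *Adgrv1* 42. Per length, genes without a peak were not poor in these elements. The 18 of them held 107 elements, or 10.2 per 100 kb, against 163, or 5.62 per 100 kb, in the 12 genes with one. The gap was smaller by gene, with a median density of 10.2 against 7.17 per 100 kb. These groups also differed in length and GC content, and whether B1 density is related to having a peak was not tested. Of the 8 elements that overlapped a member peak, 4 were on the strand of the gene.

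Genes without a peak were shorter, with a median of 39.8 kb (12.3 to 135 kb) against 108 kb (18.1 to 805 kb). They had a median GC content of 48.8% against 42.2%. The nearest peak was just outside the window for *Adgrg5*, at 10044 bp from the gene (chr8:94953334-94955359), with a signal value of 0.876 and a q of 0.0938. *Adgrg5*, *Adgrg1* and *Adgrg3* are neighbours on chromosome 8, and this was the nearest peak for all 3 of them. The next closest was 14.5 kb upstream of *Adgra2*, a co-receptor of WNT signalling in brain vessels, with a signal value of 0.826 and a q of 0.0631. *Celsr1* and *Celsr3* had their nearest peaks at 32.1 and 44.7 kb, and 13 of the 18 were over 50 kb from any peak, up to 968 kb for *Adgrg4*. Just inside the window the distances were 0, since every assigned peak touched its gene.

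A list of 36 genes for ligands, partners and effectors of these receptors was read in the same way. A peak in the gene or within 10 kb was found for 19 of 36, where genes of similar length would give 15.8, and they had 41 peaks where 41.2 would be found. Among ligands of the latrophilins, 6 of 10 had a peak where genes of similar length would give 5.99, and they had 14 peaks against 18.1. Most of these were in *Nrxn3* with 4 (highest signal value 1.19), *Tenm4* with 4 (0.978) and *Tenm3* with 3 (1.07). Among ligands of the B subfamily, 2 of 5 did against 0.955, with 3 peaks against 1.24, *Rtn4r* with 2 (1.01) and *C1ql1* with 1 (1.20), all of them outside the gene. Of the *Adgre5* ligands, for which genes of similar length would give 0.38 genes and 0.555 peaks, *Thy1* had 3 (1.45), also outside its gene of 5.2 kb, while *Cd55* had none. Of the matrix ligands, 3 of 4 had a peak against 1.88, with 5 peaks against 4.71. *Lama2* had 3 (1.04), *Col4a1* 1 (0.837) and *Col3a1* 1 (0.729), and *Tgm2* had none. Of the planar cell polarity partners of the *Celsr* genes, 3 of 6 had a peak against 2.5, with 6 peaks against 5.51, *Vangl1* with 4 in 48.8 kb (1.62), *Prickle2* with 1 (1.00) and *Vangl2* with 1 (0.992). Of the effectors, 3 of 6 had a peak against 2.64, with 7 peaks against 7.3. *Elmo1*, which couples *Adgrb1* to engulfment, had 4 (1.04), *Gna12* had 2 (0.677) and *Gna13* had 1 (0.799). *Whrn* and *Pdzd7*, which code for scaffold proteins that bind *Adgrv1*, had none.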

How the data were processed

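DamID-seq was performed on MEFs with Dam-ZFP266 (5 samples) and Dam only (5 samples). Per the labels and the study's methods, adapters were removed with cutadapt, read pairs were mapped to GRCm38 with BWA, mitochondrial and blacklisted reads were removed, reads were counted per DpnII fragment with Rsubread, and peaks were called over all samples with Daim. Versions are not given in the sources used here. DamID resolves binding only to fragments between GATC sites. In the deposited list of 15119 peaks, the authors give each peak a signal value, a −log10 q-value and a score that follows q, beside a −log10 p-value that was not used. The score was used only to rank peaks. Read depth is unknown. The labels describe the sorted cells as mOrange+ and the methods as GFP+.

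Gene extents were the union of curated RefSeq transcripts of GRCm38.p6 (21000 protein-coding genes, 37867 transcripts), and coordinates are 1-based. Both ends of all peaks were at GATC sites of GRCm38 (0 exceptions). The B1 consensus was extended from the most repeated 16-base word of chromosome 19 that RefSeq soft-masks as repeat. It had 86.3% identity to the 7SL RNA gene over 51 bp, and blastn 2.17.0+ found 278216 elements in the genome. Motifs were exact matches. Shares have Wilson intervals, and peak counts and densities have exact Poisson intervals. The interval of the median comes from binomial order statistics, and those of the ratios treat the values of similar genes as fixed. Peaks nearest in length were the 200 nearest to each member peak. Python 3.11.15, pandas 2.3.3, numpy 2.4.6, scipy 1.17.1, pysam 0.24.0 and matplotlib 3.10.9 were used.

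The members, the list of partners, the motifs and the tests were chosen with earlier results of these data known. Named genes are all members, with single peaks in full for *Adgrb3*, for the 5 members with the most peaks and for promoter peaks, and the 3 partners with the most peaks in each role, with ties broken by signal value. The other member peaks were added because they were few, and the KLF and SOX motifs, the place in the gene and neighbouring peaks were examined after the peaks had been seen. Only elements wholly inside a peak were printed. Alternatives changed the window, the peak limits, the annotation, the similar genes, the B1 definition and the part of the peak searched. Peak assignment, the choice of similar genes and the B1 search were tested on simulated data. Some items are not reported here. The authors' own annotation, the read coverage and the protein sequences were not used here.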

Additional observations from a re-analysis of the deposited data

How the results depend on the processing

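No paired analysis was possible because the deposited peaks pool all samples, and for the same reason no replicate could be left out. Of 63 values under 13 alternative settings, 56 stayed within 1.5 times the count or within the 95% interval, which is wide for 20 peaks. The other 7 came from stricter limits, which leave fewer peaks. With a q under 0.05 and a signal value above 1 (3986 of all peaks), 5 members had a peak, 5 had one inside the gene, 6 peaks were assigned to members with a median signal value of 1.14, and 9 partner genes had a peak. With the peaks whose score was above the median (7537 peaks), 11 peaks were assigned to members, of which 18.2% held a B1-like element and 36.4% an AP-1 core motif, and 10 partner genes had a peak. The ratio to genes of similar length was 0.91 to 1.01 for members with a peak and 0.59 to 0.80 for the number of peaks over all alternatives. Windows of 5 and 50 kb gave 12 and 17 members, with ratios to genes of similar length of 1.01 and 0.93. B1-like elements of at least 100 bp at 85% identity were in 20% of member peaks, and AP-1 core motifs in 30% when the central 1000 bp was searched. The share of all peaks is not given here for these definitions or for the higher-score peaks. These lower values were therefore not shown to be particular to the family. Without *Adgrb3* the share with a B1-like element was 22.2% and with an AP-1 core motif 44.4%, and without *Adgrl4* these were 29.4% and 41.2%.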
